A study of Mus musculus with 6 samples.

Results

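The 10 genes described here encode the potassium and calcium channels of T cells together with the proteins that open them: the potassium channels Kcna2, Kcna3 and Kcnn4, the calcium channel pore subunits Orai1, Orai2 and Orai3, the calcium sensors Stim1 and Stim2, the cation channel Trpv2 and the calcium release channel Itpr1. They are 10 of the 29370 genes in the authors' count matrix, and all 10 were among the 12068 genes that passed the filter on low counts and were tested. The set was chosen by measured values: Kcna2 stood among the rises with palmitate in an earlier analysis of the same libraries, and the other members, related channels and their partners, were added with that contrast known. Fold changes of members between the groups, and whether a member is among the genes called in the fit over all genes (adjusted p under 0.05 by edgeR), are therefore a description of these libraries and no evidence about the members. The study examined CD8+ T cells, the cytotoxic lymphocytes, under palmitate, which is the common saturated fatty acid of body fat. Cells of wild-type (WT) mice, taken from pancreas, spleen and lymph nodes, were cultured for 48 h, in 3 libraries with 100 µM palmitate and in 3 control libraries. The composition of the control medium and the age and number of the animals are not given in the sources used here. No label ties the libraries of a group to different mice or dishes, so the p-values given describe variation among the 6 libraries, and that variation may be technical.

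In T cells a receptor signal leads to inositol trisphosphate, which opens its receptor (Itpr1 encodes one form) and lets calcium leave the endoplasmic reticulum. STIM proteins sense the emptied store and open ORAI channels in the plasma membrane, and the calcium that enters activates calcineurin and the NFAT transcription factors. Potassium leaving through the voltage-gated channel of Kcna3 and the calcium-activated channel of Kcnn4 keeps the membrane potential negative and so maintains the driving force for calcium entry.

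The libraries held 16724588 to 29362276 counts, and palmitate replicate 3 was the shallowest. T cell identity markers (Cd3d, Cd3e, Cd3g, Cd8a, Cd8b1, Cd2, Cd5 and Lck) were present in every library and summed to 1400 to 1658 CPM (counts scaled to a common library total, with TMM factors) in control and to 1933 to 2125 CPM in palmitate libraries, and 6 of the 8 were called higher. Markers of CD4 T cells summed to 1.96 to 2.81 CPM in control and 3.70 to 6.72 CPM in palmitate libraries. Those of B and plasma cells summed to 414 to 485 and 500 to 543 CPM, of dendritic cells to 11.9 to 17.1 and 10.7 to 18.1 CPM, and of stromal and endothelial cells to 36.0 to 42.2 and 46.9 to 64.2 CPM. In the B and plasma list 2 of 9 tested markers were called higher. It was 1 of 2 in the CD4 list, 1 of 3 in the erythroid and platelet list, and the only 1 tested in the stromal and endothelial list. Over all tested genes 11.1% were called higher. Pecam1 made up nearly all of the stromal and endothelial sum, at 35.4 to 41.8 CPM in control and 46.3 to 63.7 CPM in palmitate libraries. Col1a1, Col1a2, Col3a1 and Cdh5 had under 10 reads each in all libraries together. Ighm (157 to 227 CPM in control and 231 to 250 CPM in palmitate libraries) and Xbp1 (233 to 270 and 217 to 237 CPM) made up most of the B and plasma sum. Within it Jchain stood at 1.24 to 2.50 CPM in control and 6.78 to 11.8 CPM in palmitate libraries and Igkc at 2.79 to 6.10 and 6.98 to 19.8 CPM. Sdc1 went the other way, at 3.78 to 5.25 CPM in control and 2.70 to 3.50 CPM in palmitate libraries. NK markers summed to 167 to 185 and 143 to 162 CPM, nearly all of it Eomes (166 to 185 and 141 to 161 CPM), which CD8+ T cells also express, while Klrb1c stood at 0.55 to 0.88 and 0.69 to 1.49 CPM. These single markers are named after their values were seen. Myeloid markers summed to 2.65 to 4.92 and 4.11 to 4.72 CPM, mostly Cd68 (1.5 to 3.5 and 2.7 to 3.2 CPM), with S100a8 and S100a9 at 0. Erythroid and platelet markers summed to 4.85 to 6.03 and 6.38 to 9.96 CPM, with Hbb-bs at 0.74 to 1.89 and 4.12 to 6.01 CPM. The platelet markers Pf4 (2.4 to 4.1 and 1.4 to 2.9 CPM) and Ppbp (0.413 to 0.846 and 0.275 to 0.524 CPM) did not share that rise, and their groups overlapped. Pancreatic markers summed to 1.24 to 1.90 and 1.45 to 2.86 CPM with Ins1 and Ins2 at 0. Prss2 (0.76 to 1.09 and 0.55 to 1.37 CPM) and Cela1 (0.34 to 0.81 and 0.645 to 1.25 CPM) were present in every library. Cd68, Hbb-bs, Pf4, Ppbp, Prss2 and Cela1 are also named after their values were seen. The part of these markers in the values below was not tested. Fewer cells of a type and less RNA per cell cannot be told apart in such bulk libraries.

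Kcna2 and Kcna3 lie on the plus strand of chromosome 3, Kcna3 at chr3:107036169-107038070 and Kcna2 at chr3:107101146-107115005 (GENCODE M21, GRCm38, the build for which an annotation was at hand). Both were called higher with palmitate, so the 300 bases around their RefSeq start sites (GRCm38.p6, plus strand, 250 bases before to 50 bases after the start) are shown, at chr3:107101317-107101616 for Kcna2 and chr3:107035912-107036211 for Kcna3. Capitals mark the GC box GGGCGG, searched on both strands.
Kcna2: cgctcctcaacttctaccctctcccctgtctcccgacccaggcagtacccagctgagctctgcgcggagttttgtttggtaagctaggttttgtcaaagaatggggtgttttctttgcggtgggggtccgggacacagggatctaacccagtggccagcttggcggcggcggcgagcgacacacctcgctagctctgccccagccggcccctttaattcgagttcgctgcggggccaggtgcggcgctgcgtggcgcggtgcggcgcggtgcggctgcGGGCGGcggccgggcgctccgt
Kcna3: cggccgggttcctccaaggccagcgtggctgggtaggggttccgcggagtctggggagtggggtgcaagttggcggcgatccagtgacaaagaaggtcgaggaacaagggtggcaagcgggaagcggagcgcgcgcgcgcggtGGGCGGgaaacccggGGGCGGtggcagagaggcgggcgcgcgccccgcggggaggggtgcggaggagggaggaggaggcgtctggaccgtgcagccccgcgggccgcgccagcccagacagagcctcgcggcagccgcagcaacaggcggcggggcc
The Kcna2 window held 1 GC box and the Kcna3 window 2, and 35.7% of 32851 RefSeq promoter windows held at least 1. Kcna2's window was 66.7% and Kcna3's 75.0% G and C, against a median of 52.7% over all windows. The NFAT core GGAAA, on either strand, was present 1 time at Kcna3, where its first base is the last base of a GC box, and was not found in the Kcna2 window; 61.3% of all windows held it. TATAAA was found in neither, and in 13.6% of all windows. These are matches of letters and not shown binding sites.

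The 2 other sequences that bear on the values come from splice forms. In the calcium sensor Stim2, transcript ENSMUST00000201469 carries an additional exon of 24 bases (exon 9 of 13, chr5:54110116-54110139, GRCm38, plus strand). It is in the coding sequence and is the exon of the form known as STIM2-beta, which inhibits ORAI channels instead of opening them. Capitals mark the exon, with 30 coding bases on each side.
Stim2 with the exon: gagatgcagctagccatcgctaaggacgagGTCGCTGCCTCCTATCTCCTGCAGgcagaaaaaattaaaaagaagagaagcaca
Stim2 without the exon: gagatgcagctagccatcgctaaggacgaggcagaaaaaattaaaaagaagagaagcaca
In Itpr1, the transcript counted in the authors' matrix and the transcript with most of the reads have coding sequences that differ by 1 inserted triplet after coding base 5142. Capitals mark the triplet.
Itpr1 ENSMUST00000032192: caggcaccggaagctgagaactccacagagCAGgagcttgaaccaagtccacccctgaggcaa
Itpr1 ENSMUST00000203615: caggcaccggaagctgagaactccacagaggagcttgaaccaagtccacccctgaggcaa

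Per length and summed over all annotated transcripts, the calcium-activated potassium channel gene Kcnn4 and the sensor gene Stim2 had the highest levels of the 10 genes. Levels between genes are compared in TPM, Salmon's abundance per transcript length, deposited by the authors for each transcript and summed here over all transcripts of a gene. In control libraries Kcnn4 had 45.0 ± 6.93 TPM (SD, n = 3) and Stim2 40.2 ± 1.51 TPM, and their ranges overlapped. Trpv2 (17.6 ± 0.57 TPM), Stim1 (17.2 ± 0.25 TPM) and Itpr1 (16.8 ± 2.00 TPM) followed, also with overlapping ranges between neighbours in that order. Orai1 stood at 14.2 ± 0.31 TPM and Orai3 at 12.2 ± 0.33 TPM, each apart from its neighbours. Orai2 (7.78 ± 2.78 TPM) and Kcna3 (6.92 ± 0.81 TPM) overlapped each other, and Kcna2 was lowest at 0.317 ± 0.20 TPM. Transcripts annotated as coding held 61.7% of the Stim2 TPM and 80.6% to 100% of that of the other members. The 553-base non-coding ENSMUST00000200873 held 15.3 ± 1.74 TPM of Stim2. ENSMUST00000201198, with a coding part of 1150 bases, held 13.3 ± 0.81 TPM. Transcripts with coding sequences of 2238 and 2262 bases held 10.6 ± 1.45 and 0.825 ± 0.72 TPM. Stim1's main transcript ENSMUST00000033289 had 14.2 ± 0.39 TPM, so the rank of Stim2 above Stim1 rests on its shorter transcripts.

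With palmitate the order at the top was the same, Kcnn4 at 50.4 ± 5.15 TPM (SD, n = 3) and Stim2 at 40.6 ± 1.74 TPM, here without overlap. Of the Stim2 TPM, ENSMUST00000200873 held 14.8, ENSMUST00000201198 12.9 and ENSMUST00000117661 11.7. The middle was close together, from Trpv2 at 20.6 ± 3.34 TPM through Stim1 (19.0 ± 2.24 TPM), Orai1 (18.7 ± 0.34 TPM), Itpr1 (16.3 ± 2.21 TPM), Orai2 (13.4 ± 3.57 TPM), Kcna3 (12.8 ± 2.14 TPM) and Orai3 (11.2 ± 0.91 TPM), and the ranges of all neighbours in that order overlapped. Kcna2 was again lowest, at 1.23 ± 0.54 TPM.

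**Figure D1:**
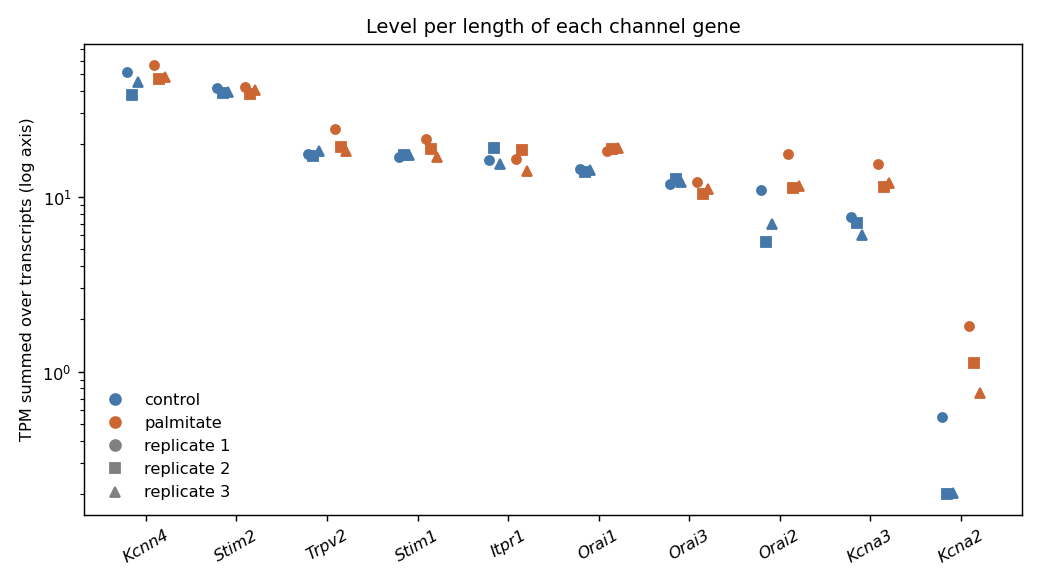
TPM summed over the transcripts of each gene (vertical log axis) for the 10 channel genes, ordered by their control mean; each point is 1 library, blue for control and orange for palmitate, with the marker shape giving the replicate number. Kcnn4 and Stim2 are highest in both groups and Kcna2 is lowest, with the 3 palmitate points of Kcna2 and of Kcna3 above their control points.

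Kcna2 encodes Kv1.2, a voltage-gated potassium channel subunit best known from neurons. The matrix held 143, 50 and 58 Kcna2 reads in control libraries 1 to 3, or 4.92, 2.00 and 2.04 CPM. Palmitate libraries 1 to 3 held 382, 251 and 126 reads, or 15.4, 9.87 and 7.52 CPM. All 3 palmitate values lay above all 3 control values, with replicate 1 the highest in both groups. The mean went from 2.99 ± 1.67 to 10.9 ± 4.05 CPM (SD, n = 3), a log2 fold change of 1.87 ± 0.43 (SE; 3.65-fold), and Kcna2 is among the genes called higher, on the contrast from which it was chosen. Differences between libraries of the same number, on log2 CPM, were 1.55, 2.05 and 1.66. With the replicate number as a block the log2 fold change was 1.92 ± 0.17 (SE), and Kcna2 was again called higher. In fits on group only, Kcna2 was not called without control replicate 2 (log2 fold change 1.65), control replicate 3 (1.65), palmitate replicate 1 (1.53) or palmitate replicate 2 (1.93). It was also not called when genes of low count were not filtered out (1.86). Markers of neurons and Schwann cells, which express this channel, summed to 3.74 to 3.92 CPM in control and 4.19 to 4.84 CPM in palmitate libraries, with Rbfox3 at 0 throughout and Syt1, Nefl and Sox10 under 10 reads in all libraries together. One transcript, ENSMUST00000038695, held 96.7% to 100% of the Kcna2 reads.

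Kcna3 encodes Kv1.3, the main voltage-gated potassium channel of T cells. Its control libraries 1 to 3 had 10.9, 9.74 and 8.17 CPM and its palmitate libraries 20.4, 16.5 and 17.1 CPM. The groups were well apart, the lowest palmitate value standing above the highest control value. From 9.60 ± 1.35 to 18.0 ± 2.06 CPM (SD, n = 3), Kcna3 had a log2 fold change of 0.91 ± 0.14 (SE; 1.88-fold) and was called higher, also in all 6 fits that left out 1 library. Same-number differences on log2 CPM were 0.88, 0.74 and 1.02. The gene has a single annotated transcript, ENSMUST00000052718, which carried all of its reads.

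Kcna3 remained the more abundant of the pair in every library. The ratio of Kcna3 to Kcna2 TPM was 14.0, 35.1 and 29.96 in control libraries 1 to 3 and 8.43, 10.1 and 15.8 in palmitate libraries 1 to 3, so the ratios of the groups overlapped between control replicate 1 and palmitate replicate 3. In GENCODE M21 the transcripts of Kcna2 and Kcna3 share 0 stretches of 31 bases, the length that Salmon indexes by default. The sequences of the submitters' index were not at hand, and assignment of reads between genes was not tested. Kcna2 shares 2 with Stim1, 2 with Itpr1 and 1 with Kcnn4, of 11803 distinct stretches in its transcripts, and all of these genes had higher levels. Kcna3 shares 36 such stretches with Kcna10, which was listed at 0 reads in all 6 libraries. Kcna1, Kcna5 and Kcna7 were also listed at 0, while Kcna4 had 3 reads and Kcna6 had 6 reads in all libraries together. Kcna2 and Kcna3 were thus the only genes of this subfamily with at least 10 reads.

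Kcnn4 encodes KCa3.1, the calcium-activated potassium channel that rises on T cell activation. The matrix gave 9.94, 11.8 and 10.01 CPM in control and 8.75, 14.3 and 7.52 CPM in palmitate libraries 1 to 3. Palmitate values fell on both sides of the control values, with a log2 fold change of -0.05 ± 0.23 (SE), and no call was made. These matrix counts hold 12.1% of the Kcnn4 reads: they equal, to within 1 read in each library, the single transcript ENSMUST00000171904, while ENSMUST00000205428 held 66.7 ± 1.83% of the reads in control and 68.2 ± 4.77% in palmitate libraries (SD, n = 3). Both transcripts have the same coding sequence of 1275 bases and differ outside it. Summed over all transcripts, Kcnn4 had 87.1, 64.2 and 75.5 CPM in control and 88.5, 79.0 and 80.1 CPM in palmitate libraries, and the log2 fold change, fitted like all such values of members with effective-length offsets, was 0.11 ± 0.11. No call was made from the sums.

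**Figure D2:**
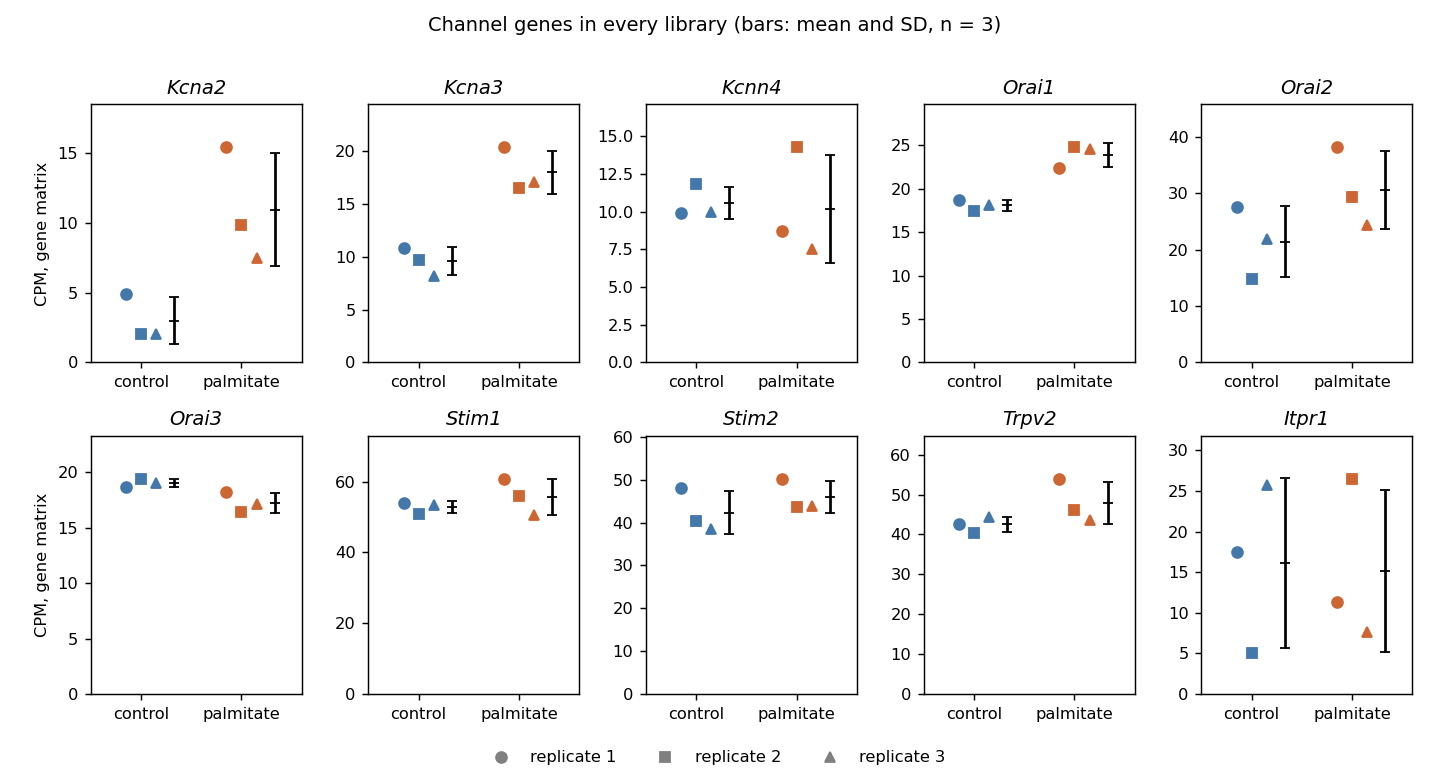
CPM from the authors' gene matrix (vertical axes, each from 0) for the 10 channel genes in 3 control (blue) and 3 palmitate (orange) libraries, with marker shapes for replicate numbers and black bars for the mean and SD. Groups are apart for Kcna2, Kcna3 and Orai1 (palmitate higher) and for Orai3 (palmitate lower). Values spread widely within a group for Itpr1, Kcna2 and Orai2, and for Kcnn4 in palmitate libraries.

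Orai1 encodes the principal pore subunit of the store-operated calcium channel. It had 18.7, 17.5 and 18.1 CPM in control libraries 1 to 3 and 22.3, 24.8 and 24.6 CPM in palmitate libraries 1 to 3. The groups did not overlap, and replicates lay close together, with a coefficient of variation of 3.40% in control and 5.69% in palmitate libraries. The log2 fold change was 0.40 ± 0.09 (SE; 1.32-fold), and Orai1 was called higher. That call was lost without control replicate 2 (log2 fold change 0.37), control replicate 3 (0.40), palmitate replicate 2 (0.37) or palmitate replicate 3 (0.38). From sums of all transcripts the value was 0.35 ± 0.10, again called.

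Orai2 encodes a homologue that forms mixed channels with ORAI1. Its matrix values were 27.5, 14.9 and 21.9 CPM in control and 38.2, 29.4 and 24.4 CPM in palmitate libraries 1 to 3. Palmitate replicate 3 lay below control replicate 1, so the groups overlapped, although each palmitate library was above the control library of its number, by 0.46, 0.96 and 0.15 on log2 CPM. The log2 fold change was 0.52 ± 0.25 (SE), with no call. With the replicate number as a block it was 0.53 ± 0.16, and Orai2 was then called higher. The matrix held 76.3% of the Orai2 reads, all from ENSMUST00000041048. Sums over all transcripts were 32.1, 17.3 and 21.5 CPM in control and 49.0, 34.0 and 35.3 CPM in palmitate libraries, without overlap, with a log2 fold change of 0.74 ± 0.25 and no call. The transcript left out of the matrix with most reads, ENSMUST00000196454, has a coding sequence of 792 instead of 750 bases and held 9.66 ± 8.51% of the reads in control and 21.2 ± 9.36% in palmitate libraries (SD, n = 3). In control replicate 3 it was listed at 0.

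Orai3, the remaining homologue, had 18.6, 19.4 and 19.0 CPM in control and 18.2, 16.4 and 17.2 CPM in palmitate libraries 1 to 3. All palmitate values lay below all control values, by a small margin at replicate 1, and the log2 fold change was -0.14 ± 0.09 (SE) with no call. Under upper-quartile scaling it was -0.08. As shares of the summed TPM of the 3 Orai genes, Orai3 took 32.0%, 39.4% and 36.3% in control libraries 1 to 3 and 25.4%, 25.7% and 26.5% in palmitate libraries 1 to 3, without overlap. Orai2 took 29.2%, 17.2% and 20.9% and then 36.6%, 27.7% and 27.9%, where palmitate replicate 2 and 3 lay below control replicate 1. Orai1 took 38.8%, 43.4% and 42.8% in control and 38.1%, 46.6% and 45.6% in palmitate libraries, the largest of the 3 shares in every library, with overlapping groups. Replicate 1 of each group had the highest Orai2 share. These shares sum to 100% in a library and are not independent of each other.

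Stim1 encodes the main calcium sensor of the endoplasmic reticulum. It had 54.1, 51.0 and 53.5 CPM in control and 60.8, 55.8 and 50.6 CPM in palmitate libraries 1 to 3. The palmitate range enclosed the control range, and the log2 fold change was 0.08 ± 0.09 (SE) with no call. The matrix held 93.5% of the Stim1 reads, from ENSMUST00000033289, which carried 95.0 ± 0.48% in control and 91.9 ± 0.99% in palmitate libraries (SD, n = 3).

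Stim2 encodes the second sensor, which responds to smaller losses of store calcium. Matrix values were 48.0, 40.3 and 38.5 CPM in control and 50.2, 43.7 and 44.0 CPM in palmitate libraries 1 to 3, with replicate 1 the highest of both groups. The ranges overlapped, the log2 fold change was 0.12 ± 0.11 (SE), and no call was made. The matrix held 58.6% of the Stim2 reads, those of ENSMUST00000117661. Summed over transcripts, Stim2 had 68.5, 68.4 and 67.8 CPM in control and 72.3, 66.1 and 68.5 CPM in palmitate libraries, and the log2 fold change was -0.04 ± 0.08. Its control libraries then had a coefficient of variation of 0.615%, against 11.9% in the matrix. The transcript with the 24-base exon shown above was listed at 0, 129 and 134 estimated reads in control libraries 1 to 3 and at 0, 179 and 20.0 in palmitate libraries 1 to 3. Replicate 1 was listed at 0 in both groups, so these estimates do not part the groups. The deposited tables hold no read positions, so reads over the exon itself could not be counted.

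Trpv2, a cation channel of immune cells, had 42.7, 40.5 and 44.4 CPM in control and 53.9, 46.1 and 43.7 CPM in palmitate libraries 1 to 3. Palmitate replicate 3 lay within the control range and the other two above it. The log2 fold change was 0.17 ± 0.10 (SE) with no call, and the matrix held all of the Trpv2 reads, from 4 transcripts.

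Itpr1, the calcium release channel opened by inositol trisphosphate, had 17.5, 5.01 and 25.8 CPM in control and 11.4, 26.5 and 7.64 CPM in palmitate libraries 1 to 3. Values within a group differed several-fold, with a coefficient of variation of 65.0% in control and 65.8% in palmitate libraries. The log2 fold change was -0.08 ± 0.72 (SE) with no call, and it ranged from -0.76 to 0.43 when single libraries were left out. The matrix held 15.2% of the Itpr1 reads, those of ENSMUST00000032192. ENSMUST00000203615, which lacks the triplet shown above and differs further outside the coding sequence, held 76.8 ± 11.5% of the reads in control and 75.8 ± 8.67% in palmitate libraries (SD, n = 3). Over all transcripts Itpr1 had 88.5, 122.3 and 101.8 CPM in control and 85.1, 100.6 and 90.1 CPM in palmitate libraries, with coefficients of variation of 16.3% and 8.58%. The log2 fold change from the sums was -0.10 ± 0.11, without a call.

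**Figure D3:**
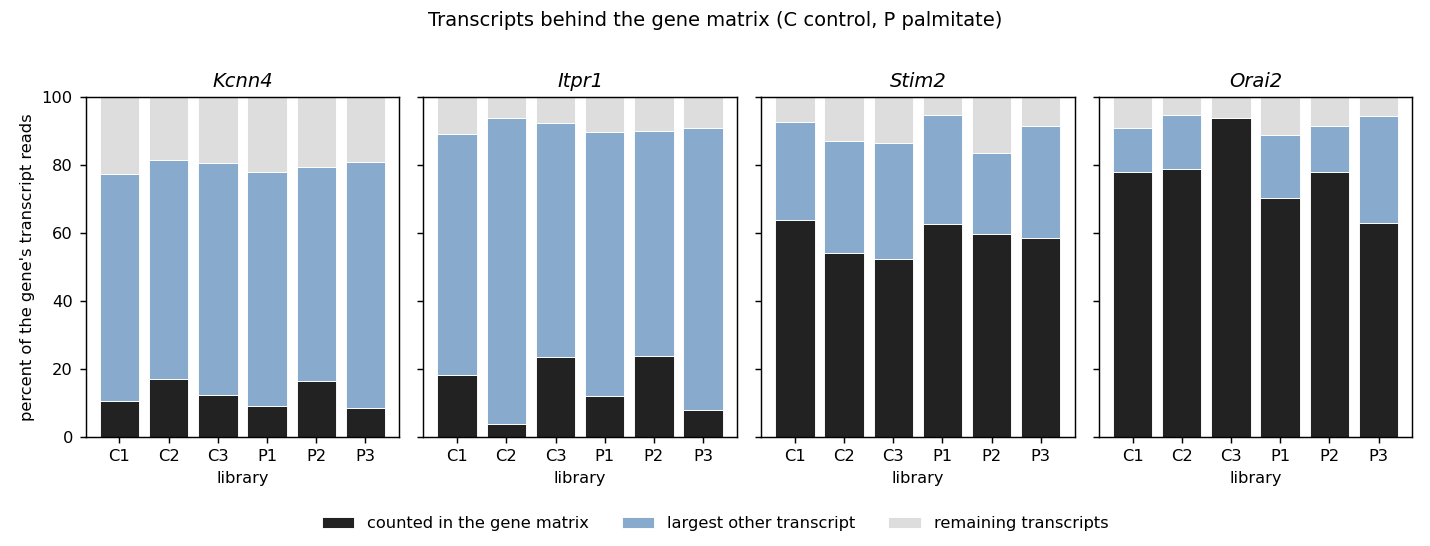
Percent of a gene's estimated transcript reads (vertical axis, 0 to 100) in control libraries C1 to C3 and palmitate libraries P1 to P3 for the 4 genes of which the matrix held under 90%. Black is the part counted in the matrix, blue the largest other transcript and grey the rest; black is the smaller part of Kcnn4 and Itpr1 and changes between replicates of a group.

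Across the 10 genes, 3 were called higher (Kcna2, Kcna3 and Orai1) and 0 lower. Over all 12068 tested genes 11.1% were called higher and 11.7% lower. DESeq2 and limma-voom also called 3 members higher and 0 lower. The split over all genes changed with scaling: 1343 genes were called higher and 1416 lower under TMM, and 1651 higher and 1052 lower under upper-quartile scaling, which moved the median log2 fold change of all genes by 0.06. Of the members, 3 had all palmitate libraries above all control libraries and 1, Orai3, had all of them below, where 21.6% and 21.2% of all tested genes did so. The median log2 fold change was 0.15 over the members and 0.02 over all tested genes. From transcript sums with length offsets, again 3 members were called higher and 0 lower, beside 9.25% higher and 10.4% lower of 13088 genes. Since the members were chosen with this contrast known, these counts describe them and support nothing further.

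**Figure D4:**
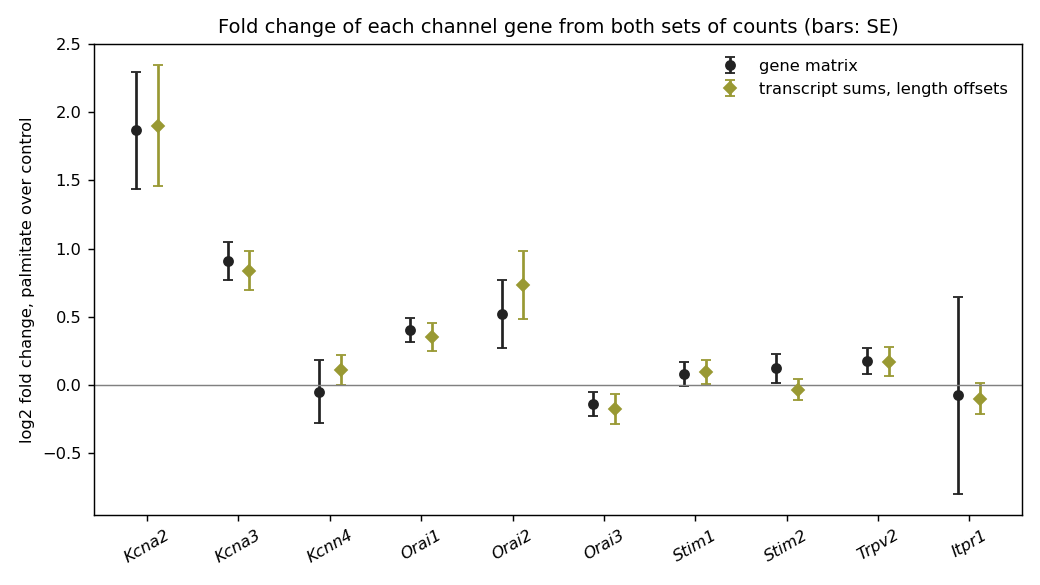
Log2 fold change, palmitate over control, of the 10 channel genes from the gene matrix (black circles) and from sums of all transcripts with length offsets (olive diamonds), with bars for the SE derived from the edgeR test. The 2 sets of counts give close values for Kcna2, Kcna3, Orai1, Orai3, Stim1 and Trpv2, and the matrix bar of Itpr1 is the widest.

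The genes around these channels were taken as 9 lists, of which 138 genes were tested. Of these, 17 (12.3%), among them Cacnb3 with the limit given below, were called higher, 11 (7.97%) lower and 110 were not called. Over all genes the shares called higher and lower were 11.1% and 11.7%. The median log2 fold change of the list genes was 0.11. With the replicate number as a block, 30 were called higher and 15 lower, where that fit called 1994 higher and 1999 lower of all 12068 genes. Under upper-quartile scaling 22 were called higher and 8 lower. Leaving out control replicate 1, 2 or 3 gave 21, 6 or 7 higher and 15, 4 or 3 lower, and leaving out palmitate replicate 1, 2 or 3 gave 10, 13 or 8 higher and 5, 5 or 4 lower. In the paragraphs below, each adjusted p is from edgeR's quasi-likelihood test over all genes, and the number of leave-one-out fits that kept the call is given of 6.

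Among 21 other potassium channel genes tested, 0 were called higher and 1 lower. Kcnj15, an inward rectifier, fell from 1.91 ± 0.55 to 0.366 ± 0.22 CPM (SD, n = 3; log2 fold change -2.33 ± 0.44, SE; adjusted p = 0.0108), and the call was kept in 5 of 6 fits, being lost without control replicate 3 (-2.17). With the replicate block 2 genes of the list were called lower, and with a minimum mean of 5 CPM 0 were. From transcript sums 3 were called lower, both with and without length offsets, and 1 was called higher without offsets. Of 7 regulators of Kv1.3 and KCa3.1, 1 was called: Dlg1, a scaffold protein that binds Kv1.3, fell by 0.28 on the log2 scale (SE 0.07, adjusted p = 0.0303) from the matrix. From transcript sums its log2 fold change was -0.30 without and -0.88 with length offsets, both called. Its call was kept in 1 of 6 fits, without control replicate 1 (values over the fits -0.34 to -0.24), and was absent under upper-quartile scaling (-0.23).

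Regulators of store-operated entry went both ways in the matrix, 2 of 8 higher and 2 lower. From transcript sums with length offsets, 3 of 10 were called higher and 1 lower. Slc35g1, a partner of STIM1, fell in all 3 palmitate libraries, from 134.6 ± 5.86 to 83.6 ± 3.50 CPM (log2 fold change -0.69 ± 0.07; adjusted p = 0.00232), and kept its call in 6 of 6 fits. The membrane tethers Esyt1 and Esyt2 rose by 0.38 ± 0.08 (adjusted p = 0.0162) and 0.45 ± 0.11 (adjusted p = 0.024) on the log2 scale, kept in 2 and 4 of 6 fits; both calls were lost without control replicate 2 or 3, and that of Esyt1 also without palmitate replicate 1 or 3, with values of 0.31 to 0.43 for Esyt1 and 0.30 to 0.52 for Esyt2 over the 6 fits. Tmem110, which helps STIM1 form junctions, was called lower at -0.56 ± 0.14 (adjusted p = 0.023). Only 65.4% of its reads entered the matrix, and transcript sums gave -0.29 without and -0.01 with length offsets, neither called. Its matrix call was kept in 2 of 6 fits, without control replicate 1 or palmitate replicate 1 (values over the fits -0.63 to -0.51).

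In the list of calcium release and pumps, 5 of 19 genes were called higher and 1 lower. Itpkb, the kinase that phosphorylates inositol trisphosphate, rose from 43.6 ± 2.21 to 64.9 ± 0.67 CPM (log2 fold change 0.57 ± 0.07; adjusted p = 0.00378), in 6 of 6 fits. Itpr2, a relative of Itpr1, rose from 48.8 ± 4.34 to 76.0 ± 7.26 CPM (0.64 ± 0.10; adjusted p = 0.00615), also in 6 of 6. The pump gene Atp2a3 rose by 0.66 ± 0.18 (adjusted p = 0.0341) and the store protein gene Calr by 0.29 ± 0.08 (adjusted p = 0.0329), kept in 2 and 1 of 6 fits, the latter without palmitate replicate 1, and ranging over the fits from 0.47 to 0.81 and from 0.24 to 0.34. The Atp2a3 call was lost without control replicate 2 or 3 or palmitate replicate 1 or 3. It was also lost without the filter on low counts (0.65). Plcg1, the phospholipase that makes inositol trisphosphate after receptor signals, was the fifth gene called higher (0.42 ± 0.13; adjusted p = 0.0487). Its call was kept in 2 of 6 fits, without control replicate 1 or palmitate replicate 2, and was not made from transcript sums with length offsets (0.54). The 1 called lower was Atp2a2, the other main store pump gene, at -0.31 ± 0.08 (adjusted p = 0.0351), kept in 1 of 6 fits, without control replicate 1, and no gene of the list was called lower under upper-quartile scaling. Plcg1 and Atp2a2 are named after their values were seen.

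TRP and polycystin channels had 2 of 10 genes called higher and 1 lower, and with the replicate block 4 were called higher. The number called higher was 3 from transcript sums without length offsets or without control replicate 1. It was 1 with DESeq2, a minimum mean of 5 CPM or transcript sums with length offsets. It was also 1 without control replicate 2 or 3 or palmitate replicate 1 or 3. Pkd1, which encodes polycystin-1, rose from 17.8 ± 2.49 to 35.2 ± 4.67 CPM (log2 fold change 0.98 ± 0.14; adjusted p = 0.00436) in 6 of 6 fits, while its partner Pkd2 fell from 3.48 ± 0.32 to 2.13 ± 0.25 CPM (-0.71 ± 0.20; adjusted p = 0.0368) in 1 of 6, without control replicate 1 (values over the 6 fits -0.81 to -0.63), and not without the filter on low counts (-0.72). The second gene called higher, Trpm2, averaged under 1 CPM and is named after its value was seen (log2 fold change 1.86, with no other value given here). Of 7 voltage-gated calcium channel subunit genes, Cacnb3 was the 1 called, and its matrix count holds a single transcript. The matrix listed it at 0 reads in all 3 control libraries and at 34, 113 and 69 in palmitate libraries 1 to 3, the reads of ENSMUST00000109150. Salmon listed another coding transcript, ENSMUST00000230490, at 79.3, 121.8 and 89.6 reads in control and at 18.0, 0 and 17.7 in palmitate libraries. Summed over transcripts Cacnb3 had 119, 132 and 112 reads in control and 71, 149 and 112 in palmitate libraries, with a log2 fold change of 0.18 without and -0.09 with length offsets and no call in either. No fold change is given from the matrix.

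Mitochondrial calcium handling had 1 of 13 genes called higher and 2 lower. Vdac1, of the outer membrane, fell by 0.39 on the log2 scale (SE 0.10, adjusted p = 0.0265), and Letm1, of the inner membrane, fell by 0.25 (SE 0.06, adjusted p = 0.0298). Both kept their call in 1 of 6 fits, without control replicate 1, and Letm1 was not called under upper-quartile scaling (-0.19). With the replicate block, 4 genes of the list were called lower. Over the fits Vdac1 ranged from -0.48 to -0.30 and Letm1 from -0.27 to -0.22.

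Calcineurin, NFAT and calmodulin kinase genes had 4 of 26 called higher and 1 lower. The kinase genes Camk2d and Camk1d rose, from 44.0 ± 2.60 to 62.3 ± 3.60 CPM (log2 fold change 0.50 ± 0.08; adjusted p = 0.00706) and from 22.0 ± 0.57 to 30.5 ± 1.16 CPM (0.47 ± 0.08; adjusted p = 0.00725), both in 6 of 6 fits, though Camk1d lost its call in transcript sums with length offsets (0.43; without offsets 0.46, called). Ppp3r1, the regulatory subunit of calcineurin, fell by 0.40 (SE 0.11, adjusted p = 0.0332), in 1 of 6 fits, without control replicate 1 (values -0.50 to -0.30). Dyrk2, a kinase that phosphorylates NFAT, rose by 0.32 ± 0.10 (adjusted p = 0.0427), in 1 of 6, without palmitate replicate 2 (values 0.23 to 0.39). It was not called without the filter on low counts (0.31) or from transcript sums with length offsets (0.31). Camk2g, named after its value was seen, was the fourth gene called higher (0.37 ± 0.11; adjusted p = 0.0429), kept in 1 of 6 fits, without control replicate 1, and not called from transcript sums with length offsets (0.25).

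Other ion channels and ion pumps had 2 of 27 called in each direction. The 2 called lower remained 2 in number under every alternative run, while the number called higher was 9 with the replicate block, 6 with DESeq2 and 5 under upper-quartile scaling, a minimum mean of 5 CPM, transcript sums with length offsets or without control replicate 1. It was 0 without control replicate 2, palmitate replicate 2 or palmitate replicate 3, and 1 without control replicate 3. The ion cotransporter gene Slc12a2 fell from 83.5 ± 7.58 to 49.3 ± 1.22 CPM (log2 fold change -0.76 ± 0.08; adjusted p = 0.00312), and P2rx4, an ATP-gated cation channel that also lets calcium in, fell from 32.6 ± 3.23 to 17.1 ± 2.62 CPM (-0.93 ± 0.13; adjusted p = 0.00489), both in 6 of 6 fits. Clcn7, a lysosomal chloride transporter, rose by 0.43 ± 0.09 (adjusted p = 0.0171) and Tmem63b, an osmosensitive channel, by 0.65 ± 0.19 (adjusted p = 0.0417), each in 2 of 6 fits, without control replicate 1 or palmitate replicate 1 (values over the fits 0.38 to 0.50 and 0.55 to 0.80). Clcn7 was called from transcript sums without length offsets (0.42) and not with them (0.32), and Tmem63b was not called by limma-voom (0.62).

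**Figure D5:**
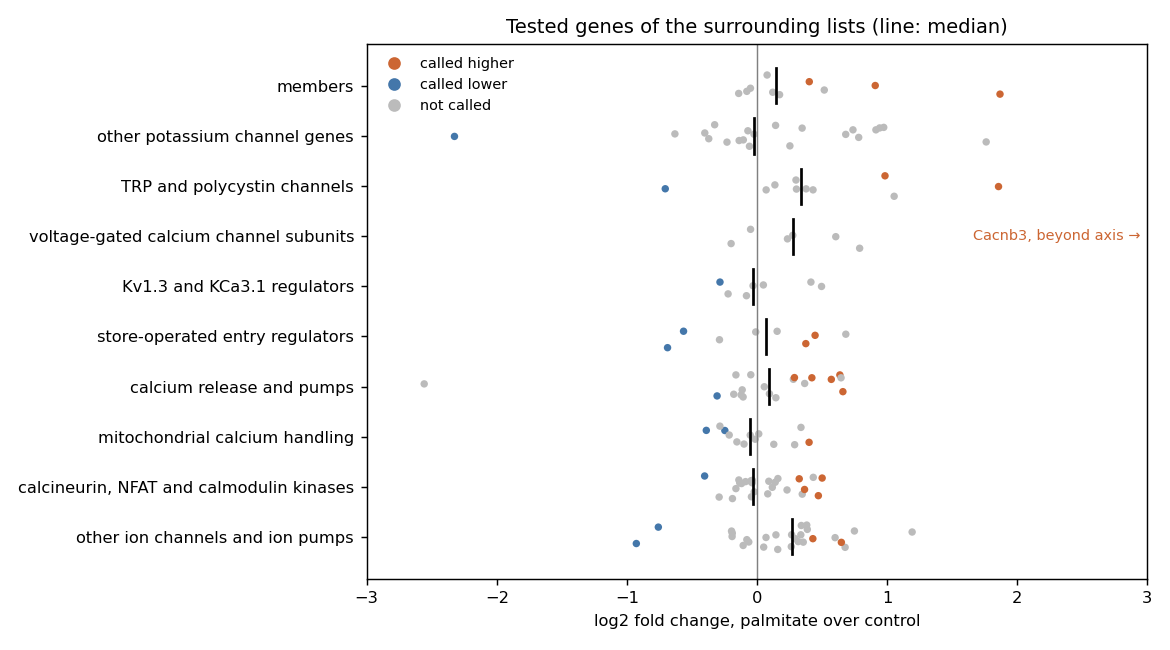
Log2 fold change, palmitate over control (horizontal axis), of every tested gene of the 9 lists and of the 10 members, with orange for genes called higher, blue for lower, grey for not called, and a black line at each list's median. Points are spread vertically for legibility; Cacnb3, listed at 0 in the control libraries, lies beyond the axis, and 110 of the 138 list genes are grey.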

How the data were processed

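RNA from 6 libraries of mouse CD8+ T cells was measured. The library kit was SMARTER mRNA-Seq, per the labels' protocols. Salmon 1.10.0, Trim Galore 0.6.10, GRCm39 and DESeq 1.42.0 stand in the submitters' processing notes. For the whole series the authors deposited 1 table of counts per gene, in whole numbers. For each library the authors deposited Salmon's expected counts and TPM per transcript, per the file headers. The strand setting and the table that linked transcripts to genes are not given in the sources used here.

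Counts of the matrix were tested with edgeR 4.0.16 in R 4.3.3 (TMM, filterByExpr, robust quasi-likelihood fit on group, Benjamini-Hochberg adjustment over all genes, threshold 0.05), which left 12068 of 29370 genes; "called" means past this threshold. CPM use TMM-scaled totals. Each SE was derived from the edgeR test, as the absolute log2 fold change divided by the square root of the F statistic. Differences between libraries of the same number are on log2(CPM + 0.5). Expected counts were summed over a gene's transcripts by GENCODE M21 (98.82% of transcripts matched), rounded, and fitted the same way with effective-length offsets as an alternative. For each member, the matrix count equalled the sum of a subset of its transcripts to within 1 read in every library; the matrix held under 90% of the reads for 4 members. Length offsets and summed transcripts can move a gene whose transcript use differs between libraries. Further alternatives were RLE and upper-quartile scaling, DESeq2 1.42.0, limma-voom (limma 3.58.1), no filter, genes averaging at least 5 CPM, the replicate block and leaving out each library. 0 columns were unused. The edgeR fit was tested on simulated data.

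The members and the gene lists were chosen with earlier results of these data known. All members are named; in each list up to 4 called genes with the smallest p and a mean of at least 1 CPM are named, and some genes that the rule selects are not reported here. In 2 lists an older symbol was used (Tmem110 for Stimate, Lrmp for Irag2). Replicate numbers come from the labels' titles. Deviations from the group means correlated at 0.30, 0.19 and 0.17 for same-number libraries and at -0.25 to 0.08 for the rest. The deviations within a group sum to 0, so these correlations are not independent of each other. By a limit of 0.1 the numbers pair the libraries, though no label states a pairing. The main fit used group only, so its calls, SE and adjusted p ignore any pairing, and the replicate block is an alternative. Promoter windows are RefSeq's (GRCm38.p6), and all 10 members matched. The deposited files hold no coordinates, and those printed are from GRCm38, not from the submitters' build.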

Additional observations from a re-analysis of the deposited data

How the results depend on the processing

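With 1 library left out in turn, all genes called ranged from 690 (without control replicate 3) to 3433 (without control replicate 1), against 2759 with all 6; members called higher ranged from 1 to 3, pathway list genes called higher from 6 to 21 and lower from 3 to 15. The replicate block raised the pathway list genes called higher from 17 to 30, all genes called to 3993, and members called higher from 3 to 4 by adding Orai2 (log2 fold change 0.53); it changed no other member's call. The number of members called lower was 0 under every alternative run. Cacnb3, called higher from the matrix, had a log2 fold change of -0.0876 from transcript sums with length offsets. Without the filter on low counts 2 members were called higher, Kcna2 (1.86) being lost. Kcna2 had 50 to 143 reads in a control library. Salmon's division of reads among transcripts limits Kcnn4, Itpr1, Stim2 and Orai2, of which the matrix held 12.1%, 15.2%, 58.6% and 76.3% of the reads. In TPM instead of reads, the transcript counted in the matrix held 26.4% of Stim2 in control and 28.9% in palmitate libraries, and 82.7% and 80.3% of Stim1.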
